A study of Mus musculus with 2 samples.

Results

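The cells described here carry the authors' population name TAM_Spp1, for tumour-associated macrophages (TAMs) marked by Spp1, the gene of the secreted matrix glycoprotein osteopontin. Members were all cells with that name in the deposited cell table, 912 of 7815 cells, of which 193 of 2975 came from the NTT library and 719 of 4840 from the RTT library. Single-cell RNA was measured in live CD45+ cells, the leukocytes, sorted from YUMM3.3 melanomas grown under the skin of C57BL/6 mice. The labels give day 12 for the tumours, whereas the methods name another day. YUMM3.3 carries Braf V600E and lacks Cdkn2a in both groups. NTT tumours arose from therapy-naive cells, and RTT tumours arose from a derivative that had become resistant to BRAF inhibition and was kept in dabrafenib in culture. Each group was 1 library, and no number of tumours per library was at hand. The tumour line, the mouse, the sort and the library therefore cannot be told apart. No test was possible, and every interval below covers counting error only. A single library of each kind also limits both groups as models of naive and resistant disease. The study asked how the myeloid cells of naive and resistant tumours differ.

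Depth was alike in the 2 libraries for these cells. TAM_Spp1 cells held 1028355 unique molecular identifiers (UMIs, each tagging 1 captured RNA molecule) from NTT and 4359475 from RTT. Per cell, the median was 4949 and 5351 UMIs and 1901 and 1996 detected genes. The other monocyte and macrophage populations with at least 50 cells were Monocyte_1, Infl_Mono, TAM_H2Ab1, TAM_cycling and Macro in the NTT library, and Monocyte_1, Infl_Mono, TAM_C1q, TAM_cycling and Ctsk_Macro in the RTT library, so the populations set beside TAM_Spp1 were not the same in both. The libraries shared 7 barcodes, of which 0 belonged to TAM_Spp1 cells. NK cells, which should lack macrophage transcripts, were used as a guide to free RNA. They held 72.3 CPM of Spp1 (UMIs of a gene scaled to a total of 1000000) and 41.5 CPM of C1qa in the NTT library and 260 and 814 CPM in the RTT library. When each cell was thinned to 2000 UMIs, a UMI of C1qa was found in 10 of 41 RTT NK cells (24.4%). The RTT values may therefore rest on some of the NK cells, and whether they reflect free RNA was not tested.

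Macrophages in tumours derive largely from blood monocytes, which enter through Ccr2, lose monocyte genes such as Plac8, and gain genes for complement C1q, phagocytosis and lipid handling as they mature. Osteopontin binds integrins and Cd44 and is secreted by many tissue and tumour macrophages. Macrophages with high Spp1 are known from several tumours as cells with genes of hypoxia, glycolysis, angiogenesis and matrix remodelling, and they are often set against macrophages that make the interferon-induced chemokine Cxcl9. Hypoxia genes are induced by HIF1, which binds a core motif in promoters and enhancers. Interferon genes are induced through response elements in their promoters. MHC class II genes, which present antigen to CD4+ T cells, share promoters with a CCAAT element and are switched on by Ciita.

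Promoters of 4 genes are shown because the comparisons of TAM_Spp1 turned on their groups. They stand for the hypoxia, interferon and class II genes described below. Each is the 250 bases before the start site in the RefSeq annotation of GRCm38.p6, 5′ to 3′ on the strand of the gene, and the capitals mark each match on either strand. Egln3, an oxygen-sensing prolyl hydroxylase and itself a hypoxia gene, has its promoter at chr12:54203875-54204124 on the minus strand, with the hypoxia motif ACGTG in capitals. Isg15, a ubiquitin-like interferon-induced modifier, has it at chr4:156200819-156201068 on the minus strand, with 3 overlapping matches to the interferon element, 2 copies of GAAA with 2 bases between them, in capitals. H2-Aa and H2-Eb1 encode the alpha chain of I-A and the beta chain of I-E, and their promoters lie at chr17:34287824-34288073 on the minus strand and chr17:34305617-34305866 on the plus strand, with CCAAT in capitals. The Egln3, Isg15 and H2-Aa windows overlapped no exon in the GENCODE M21 annotation, and the H2-Eb1 window overlapped an exon of Gm20513 on the opposite strand.
Egln3: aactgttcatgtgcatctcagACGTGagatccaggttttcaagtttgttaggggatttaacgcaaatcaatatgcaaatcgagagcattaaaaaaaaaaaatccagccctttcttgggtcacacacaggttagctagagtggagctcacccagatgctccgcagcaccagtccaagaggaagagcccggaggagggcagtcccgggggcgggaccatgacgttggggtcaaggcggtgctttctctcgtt
Isg15: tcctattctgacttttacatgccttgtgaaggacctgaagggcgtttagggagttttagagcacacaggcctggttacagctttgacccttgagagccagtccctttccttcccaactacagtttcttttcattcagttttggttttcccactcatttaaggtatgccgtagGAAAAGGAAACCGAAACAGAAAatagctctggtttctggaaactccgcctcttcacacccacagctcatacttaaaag
H2-Aa: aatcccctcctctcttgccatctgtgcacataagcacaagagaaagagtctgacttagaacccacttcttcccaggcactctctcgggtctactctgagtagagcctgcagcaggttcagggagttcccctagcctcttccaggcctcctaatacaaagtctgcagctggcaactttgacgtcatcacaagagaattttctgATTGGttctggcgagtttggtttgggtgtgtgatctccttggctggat
H2-Eb1: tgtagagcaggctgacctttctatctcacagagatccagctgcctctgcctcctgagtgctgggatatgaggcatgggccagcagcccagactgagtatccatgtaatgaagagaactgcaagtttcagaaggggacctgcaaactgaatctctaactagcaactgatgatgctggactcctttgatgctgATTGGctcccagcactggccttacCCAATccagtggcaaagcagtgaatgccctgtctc

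The match in Egln3 began 229 bases before the start site, the first of those in Isg15 at 78 bases, that in H2-Aa at 48 bases and those in H2-Eb1 at 59 and 35 bases. RefSeq promoters were found for 20 of the 23 hypoxia genes in the matrix, and ACGTG occurred in 14 of their 26 promoters (53.8%) against 21.1% of the promoters of genes in the deposited count matrix and 16.6% of all 32851 promoters of that length. The interferon element occurred in 14 of 25 promoters (56.0%) of 23 of the 30 interferon-stimulated genes, against 2.79% of the promoters of genes in the count matrix and 2.98% of all promoters. CCAAT occurred in 7 of 9 promoters (77.8%) of 8 of the 11 class II genes, against 34.9% and 33.8%. These are matches of letters and not measured binding.

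TAM_Spp1 cells made up 8.78% of NTT monocytes and macrophages (193 of 2197 cells, exact Clopper-Pearson 95% interval 7.63 to 10.0%) and 17.1% of RTT monocytes and macrophages (719 of 4208, 16.0 to 18.3%). The difference was 8.30 percentage points (Newcombe 95% interval 6.63 to 9.91). Among macrophages alone the order turned, with 33.2% of 582 NTT cells and 17.9% of 4009 RTT cells, a difference of -15.2 points (-19.3 to -11.3). The RTT macrophages included 2001 TAM_C1q cells against 17 in the NTT library, and 280 cells of Ctsk_Macro, a population with 0 NTT cells. A share of sorted cells says nothing of the number of cells in a tumour.

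The 4 marker genes did not follow the name TAM_Spp1 in the same way in both libraries. Spp1 (chr5:104435118-104441050, plus strand) was at 167 CPM (exact Poisson 95% interval 143 to 194) in NTT and at 3982 CPM (3923 to 4042) in RTT TAM_Spp1 cells. In the NTT library Monocyte_1 cells were higher, at 269 CPM (256 to 284), and Infl_Mono cells lower, at 93.2 CPM (82.8 to 105), so Spp1 did not mark the NTT cells that bear its name. In the RTT library TAM_Spp1 and TAM_C1q cells could not be ordered, at 3982 and 3977 CPM (3948 to 4006 in TAM_C1q), followed by Infl_Mono at 2578 CPM and TAM_cycling at 2110 CPM. RTT cells named neutrophils, only 29 of them, were at 5244 CPM of Spp1 and also at 7699 CPM of C1qa. The RTT over NTT log2 ratio of Spp1 in TAM_Spp1 was 4.57 (4.36 to 4.80), beside 2.21 in Monocyte_1 and 4.79 in Infl_Mono, so the difference in Spp1 between the libraries was not particular to TAM_Spp1.

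Arg1 (chr10:24915221-24927484, minus strand), the arginase that depletes arginine around T cells, was at 840 CPM (785 to 898) in NTT and 928 CPM (900 to 957) in RTT TAM_Spp1 cells, a log2 ratio of 0.14 (0.04 to 0.25). It was the most even of the 4 markers between the libraries. Arg1 was higher than in any other RTT monocyte or macrophage population, the next being TAM_C1q at 442 CPM, and in the NTT library it was exceeded by Macro cells at 1554 CPM. Thbs1 (chr2:118111876-118127133, plus strand), the matricellular thrombospondin 1, was at 4181 CPM (4057 to 4308) in NTT and 449 CPM (429 to 469) in RTT cells, a log2 ratio of -3.22 (-3.30 to -3.14). The NTT value was the highest of 6 populations, above Infl_Mono at 2331 CPM, and the RTT value overlapped Infl_Mono at 453 CPM. Vcan (chr13:89655312-89742509, minus strand), the matrix proteoglycan versican, was at 666 CPM (617 to 718) in NTT cells, highest of the 6, and at 169 CPM (157 to 181) in RTT cells, below Monocyte_1 at 232 CPM. Against the populations of at least 50 cells, NTT cells were therefore highest in Thbs1 and Vcan, and RTT cells in Arg1, with Spp1 shared with TAM_C1q.

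**Figure D1:**
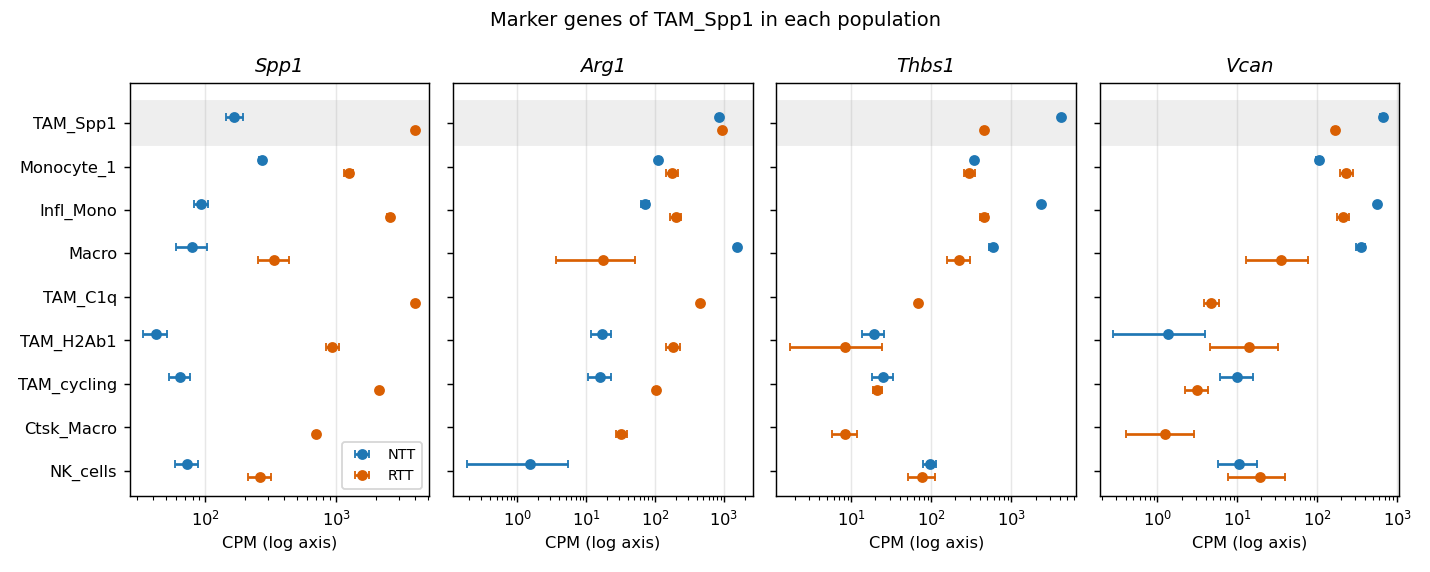
Levels of Spp1, Arg1, Thbs1 and Vcan (CPM, log axis) in TAM_Spp1 cells, shaded, in the other monocyte and macrophage populations with at least 25 cells and in NK cells, with exact Poisson 95% intervals. Blue points are the NTT and orange points the RTT library, a value of 0 is not drawn, and Spp1 is at 167 CPM in NTT against 3982 CPM in RTT TAM_Spp1 cells while Thbs1 is at 4181 against 449 CPM.

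Shares of cells with a UMI were compared at equal depth. After each cell was thinned to 2000 UMIs, which kept 191 NTT and 703 RTT cells, at least 1 UMI of Spp1 was found in 12.6% (8.22 to 18.1%) of NTT and 55.2% (51.4 to 58.9%) of RTT TAM_Spp1 cells. NK cells gave 6.71% (3.40 to 11.7%) and 17.1% (7.15 to 32.1%), so the interval of the NTT share overlapped that of NK cells. The Spp1 share in RTT TAM_C1q cells was 70.8% (68.7 to 72.8%), and that in RTT TAM_cycling cells 56.8% (53.6 to 60.0%). NTT Monocyte_1 cells were at 11.9% (9.90 to 14.1%). These shares do not follow the order of the CPM values in either library, so no order of Spp1 among populations is read from them. Thbs1 was found in 82.7% (76.6 to 87.8%) of NTT and 26.5% (23.2 to 29.9%) of RTT TAM_Spp1 cells, beside 39.1% (29.1 to 49.9%) of RTT Infl_Mono cells, and Vcan in 49.7% and 18.6%. Arg1 was found in 28.8% (22.5 to 35.8%) and 35.0% (31.5 to 38.6%), and in 0 of 164 NTT and 0 of 41 RTT NK cells, with upper bounds of 2.22% and 8.60%.

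Cxcl2, Ptgs2, Il7r, Flrt3 and Hilpda stood furthest above the neighbours when genes were ordered by the smaller excess of the 2 libraries, and Spp1 was not among the 15 leaders. Expression was compared with the equal-weight mean of the 5 other populations of the same library, over 5710 genes with at least 100 UMIs in all TAM_Spp1 cells. A log2 ratio of 1 or more, a 2-fold excess, was reached by 8.41% of genes in NTT, 2.59% in RTT and 1.59% (91 genes) in both. Because the authors clustered the cells on the expression of these genes, the values describe the cluster and are no test of it. Cxcl2, a chemokine that draws neutrophils, led with 1410 CPM in NTT and 1486 in RTT cells, beside 123 and 75.5 CPM in the others, and its level hardly differed between the libraries. Ptgs2, the cyclooxygenase that makes prostaglandins, was at 641 and 142 CPM against 46.2 and 16.1 CPM. Il7r, the interleukin 7 receptor, had log2 excesses of 2.64 and 2.49, and Flrt3, a membrane adhesion protein, 3.01 and 2.34. Hilpda, a hypoxia-induced lipid droplet protein, was at 660 and 303 CPM against 62.6 and 64.6 CPM.

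Further down the 15 leading genes stood Egln3, Ddit4, Slc7a11, F10 and Pgf. Egln3 was at 127 and 14.2 CPM against 11.7 and 3.35 CPM, and Ddit4, a stress-induced inhibitor of mTORC1, at 65.2 and 23.4 CPM against 11.6 and 5.84 CPM. Slc7a11, the cystine importer, was at 407 and 84.9 CPM against 42.1 and 21.5 CPM. F10, coagulation factor X, was at 713 and 135 CPM against 134 and 37.1 CPM. Pgf, placental growth factor, was at 38.9 and 71.8 CPM against 6.62 and 18.6 CPM. Tnfrsf23, Pde4d, Nr4a3, Hcar2 and Ier3 completed the 15 leading genes, with log2 excesses between 1.80 and 2.99. Of the 15 leaders, only Cxcl2, Pde4d and Pgf had an RTT over NTT log2 ratio above 0, at 0.08, 0.99 and 0.88. Spp1 had a log2 excess of 0.61 in NTT and 0.91 in RTT cells.

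The 10 trailing genes included Hist1h2ap, Stmn1, Irf7, Ifi47, Folr2 and Acp5. Of all genes, 8.37% in NTT and 2.57% in RTT were at least 2-fold below the neighbours. The histone gene Hist1h2ap was at 28.2 and 40.8 CPM against 262 and 379 CPM in the others, and Stmn1, a microtubule regulator of dividing cells, at 26.3 and 34.4 CPM against 189 and 346 CPM. The means of the others included TAM_cycling cells in both libraries. They also included Infl_Mono cells, which the paper identifies by high levels of interferon-stimulated genes. Irf7, the transcription factor that amplifies type I interferon, was at 154 and 49.3 CPM against 697 and 252 CPM, and Ifi47, an interferon-induced GTPase, at 67.1 and 32.8 CPM against 331 and 203 CPM. Folr2, a folate receptor of tissue-resident macrophages, was at 43.8 and 31.2 CPM against 180 and 166 CPM. Acp5, the tartrate-resistant phosphatase of osteoclasts, was at 85.6 and 134 CPM against 577 and 4844 CPM, the latter mean including Ctsk_Macro cells. Phf11b, Chchd10, Serpinb6a and Npl made up the rest of the 10 trailing genes.

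By list, the same comparison gave medians to read against -0.08 for all genes in NTT and -0.03 in RTT. Matrix genes had a median log2 excess of 1.59 in NTT and 0.87 in RTT cells, inflammatory cytokines and chemokines 1.01 and 1.23, and hypoxia genes 1.16 and 0.67. Genes induced by tissue dissociation were also above the neighbours, with medians of 0.84 and 0.67 and 9 and 8 of 23 past 2-fold, and the part of dissociation in these excesses was not tested. Monocyte genes were at 1.08 and 0.20 and resident-type TAM genes at -1.38 and -0.42. Interferon-stimulated genes were lower in TAM_Spp1 than in the mean of its neighbours in both libraries, with medians of -1.28 and -1.72. Both means included Infl_Mono cells, which the paper identifies by high levels of interferon-stimulated genes, and the part of these cells in the medians was not tested. Class II genes differed in sign between the libraries, with -1.14 in NTT and 1.24 in RTT cells, although the neighbours in the mean were not the same populations. NTT TAM_cycling cells, 1 of the 5 in the NTT mean, held 3740 CPM of B and plasma cell markers, beside 67.0 CPM in RTT TAM_cycling cells, and the part of these in the class II values was not tested.

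**Figure D2:**
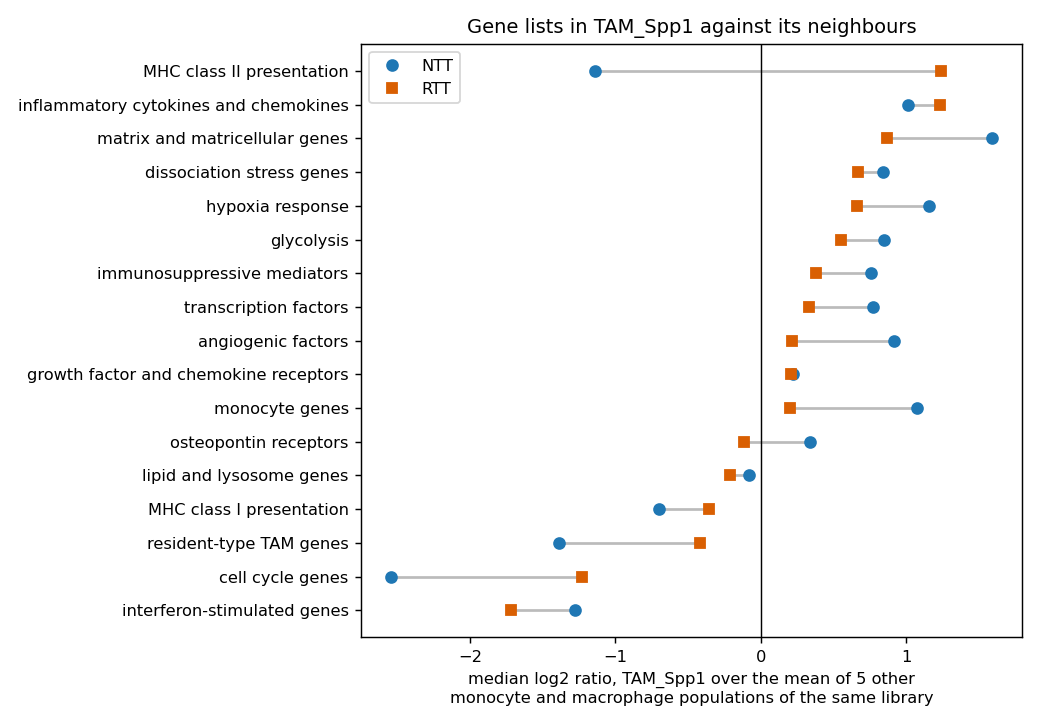
Median log2 ratio of each gene list in TAM_Spp1 cells over the mean of the 5 other monocyte and macrophage populations of the same library, NTT as circles and RTT as squares. Class II genes lie at -1.14 in NTT and 1.24 in RTT, and interferon-stimulated genes at -1.28 and -1.72.

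Between the libraries, TAM_Spp1 cells differed in many genes in each direction. Of the 5710 genes, 761 (13.3%) were at least 2-fold higher and 757 (13.3%) at least 2-fold lower in RTT than in NTT cells, around a median log2 ratio of 0.06. The shares in Monocyte_1 were 3.1% higher and 11.6% lower, in Infl_Mono 6.21% and 9.64%, and in TAM_cycling 5.49% and 4.7%, in populations of other sizes and depths. Genes in which 1 cell held over 20% of all UMIs were left out of the choice of named genes (16 genes). In bulk sums such as these, fewer cells that express a gene and less RNA per cell cannot be told apart.

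The 10 genes most in excess in RTT cells were Hpgds, Fcrls, Actn1, Pdgfa, Mgl2, Htra3, Spp1, Zmynd15, Plxdc2 and Pdgfb. Except for Spp1, each had at most 20 NTT UMIs and passed the minimum through its RTT UMIs, so its place here depended on the library where it was high. Fcrls, an Fc receptor-like scavenger receptor of mouse microglia and macrophages, was at 11.7 CPM in NTT against 698 CPM in RTT cells, a log2 ratio of 5.90 (5.10 to 6.86). Mgl2, the galactose lectin CD301b, was at 19.4 and 537 CPM, a log2 ratio of 4.79 (4.16 to 5.50). Its share of cells with a UMI at equal depth was 3.14% (1.16 to 6.71%) against 26.5% (23.2 to 29.9%). Hpgds, the haematopoietic prostaglandin D2 synthase, had 1 UMI in NTT and 275 in RTT cells, a log2 ratio of 6.02 (3.53 to 11.3). The ratio rested on that UMI, and where it was lost the NTT sum was 0 and the log2 ratio at least 2.72 after thinning and at least 4.02 without the highest doublet scores, with a floor of 3 UMIs. The platelet-derived growth factor chains Pdgfa and Pdgfb had 2 UMIs each in NTT and 246 and 133 in RTT cells, log2 ratios of 4.86 (2.99 to 7.91) and 3.97 (2.09 to 7.03). Htra3, a secreted serine protease, was at 3.89 and 104 CPM, and Zmynd15, a zinc finger protein, at 5.83 and 132 CPM. Actn1, an actin crosslinker, and Plxdc2, a plexin-domain membrane protein, had 1 and 2 UMIs in NTT and 139 and 165 in RTT cells. Several of these genes were nevertheless lower than in the RTT neighbours, whose mean of Fcrls was 1817 CPM. The log2 ratio over the RTT neighbours was -1.69 for Hpgds, -1.38 for Fcrls, -0.93 for Actn1, -0.62 for Pdgfb, -0.50 for Zmynd15 and -0.43 for Pdgfa. It was 2.07 for Plxdc2, 1.65 for Mgl2, 1.31 for Htra3 and 0.91 for Spp1.

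The 10 genes most in excess in NTT cells included the monocyte gene Plac8. Slpi, a secreted inhibitor of leukocyte proteases, was at 4168 CPM in NTT against 140 CPM in RTT cells, the lowest log2 ratio of the 10 at -4.90 (-5.02 to -4.78). Plac8, a gene of Ly6C-high monocytes, was at 3309 and 265 CPM, a log2 ratio of -3.64 (-3.74 to -3.55). Slfn4 and Ifitm6, both myeloid genes of interferon-responsive families, were at 93.4 and 4.59 CPM and at 823 and 58.5 CPM. The transcriptional regulators Id3, Hes1 and Ets1 were at 194, 151 and 76.8 CPM in NTT and at 12.6, 12.6 and 5.96 CPM in RTT cells. Sgms2, a sphingomyelin synthase, was at 143 and 7.34 CPM, and Ramp3, a receptor activity-modifying protein, at 106 and 8.49 CPM. The counting intervals of these genes all lay below -3 on the log2 scale. Slfn4, Ifitm6, Gbp2, Fcrls, the H2 genes and the Ccl genes have close relatives in the genome, so reads that match more than 1 of them make their values uncertain.

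**Figure D3:**
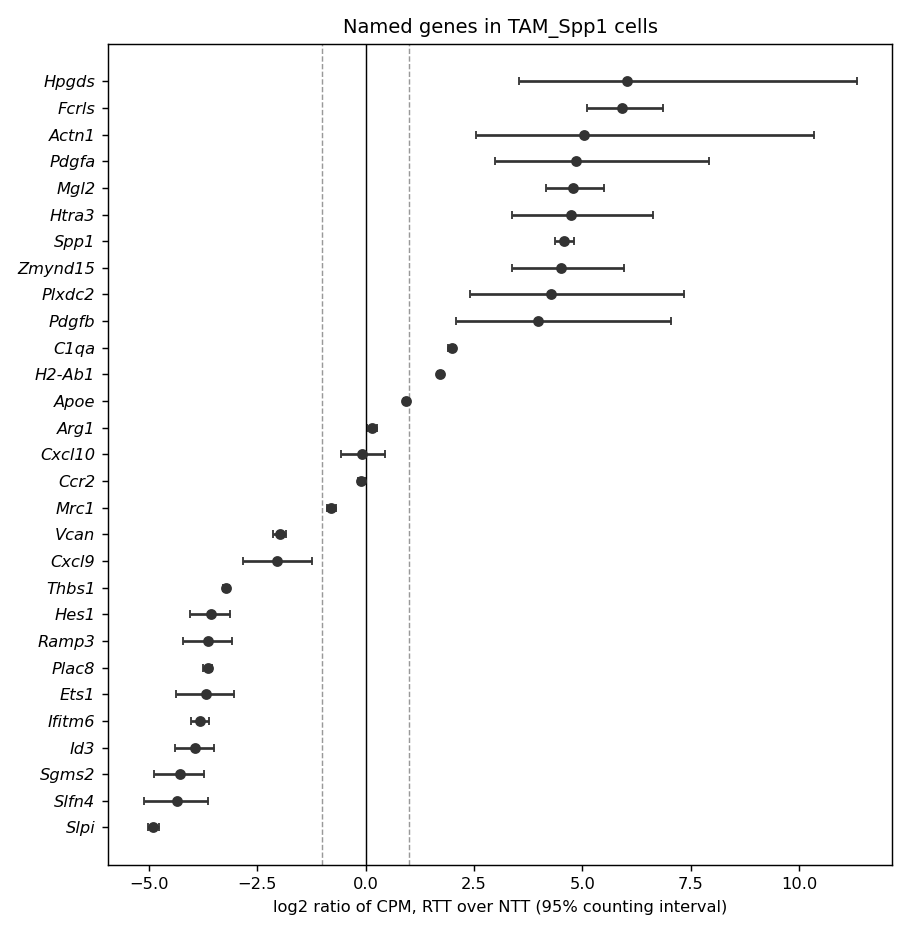
Log2 ratio of CPM in RTT over NTT TAM_Spp1 cells for the 11 genes always named and the named genes most in excess in each library, with exact binomial 95% intervals that cover counting error only. Dashed lines mark 2-fold, the widest intervals belong to genes with 1 or 2 NTT UMIs, and Arg1, Cxcl10 and Ccr2 lie near 0.

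The counts of list members that follow stand beside 13.3% of all genes higher and 13.3% lower. Matrix genes included more 2-fold lower than higher members. Of 19 matrix and matricellular genes with at least 100 UMIs, 3 were 2-fold higher and 8 were 2-fold lower in RTT cells, with a median log2 ratio of -0.59. The 3 higher were Spp1, Mmp12, the macrophage elastase, at 24.3 and 303 CPM, and Timp2, an inhibitor of metalloproteinases, at 58.3 and 215 CPM. Thbs1, Adam8, a surface metalloproteinase, at 653 and 122 CPM, and F10 were the 3 lowest. Among 7 osteopontin receptors, 0 were 2-fold higher and 2 were lower, the hyaluronan receptor Cd44 at 1304 and 288 CPM (log2 -2.18, -2.29 to -2.07) and the integrin Itga4 at 125 and 48.2 CPM. Itga5, Itga9, Itgav, Itgb5 and Itgb1 lay between log2 ratios of -0.81 and 0.78. RTT cells thus had more Spp1 and less Cd44 than NTT cells.

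Angiogenic factors were split by gene. Of 8 measured, 2 were 2-fold higher, Pdgfa and Pdgfb, and 2 were lower, Ptgs2 at 641 and 142 CPM and Vegfa, the main vascular growth factor, at 138 and 33.0 CPM. Anxa2, Nrp1, Nrp2 and Pgf lay between -0.82 and 0.88, and the median was 0.03. The median rested on few genes, since it was -2.14 over the 3 that still had 100 UMIs after thinning, -1.50 over the 2 with 500 UMIs and -0.47 over all 14 with no minimum. A UMI of Vegfa was found at equal depth in 17.3% (12.2 to 23.4%) of NTT and 4.27% (2.90 to 6.04%) of RTT cells.

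Hypoxia genes were lower in RTT cells as a group. Of 19 measured, 0 were 2-fold higher and 10 were 2-fold lower, with a median log2 ratio of -1.12 beside 0.06 for all genes. Egln3 had a log2 ratio of -3.16 (-3.62 to -2.72), Ndrg1, a stress-induced differentiation gene, was at 358 and 53.2 CPM, and Vegfa followed with -2.06 (-2.41 to -1.72). Mif, a cytokine that is also a HIF target, was at 1354 and 1483 CPM and was the only member above 0. Fam162a and Higd1a, both mitochondrial hypoxia proteins, had log2 ratios of -0.36 and -0.54. Monocyte_1 cells had a like median, -1.16, and TAM_cycling cells 0.10, so the difference was shared by some neighbours. The level of hypoxia genes in RTT TAM_Spp1 cells nevertheless stood above that of RTT neighbours, as given above.

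Glycolysis genes followed more weakly. Of 18 measured, 0 were 2-fold higher and 7 were lower in RTT cells, with a median of -0.56. The regulatory and entry enzymes were furthest apart. Pfkfb3, which makes the activator of phosphofructokinase, was at 280 and 33.5 CPM, Hk3 at 80.7 and 20.9 CPM, and Hk1 at 87.5 and 32.3 CPM, the latter both hexokinases. The downstream enzymes Ldha and Aldoa had log2 ratios of 0.10 (0.02 to 0.18) and 0.05 (-0.02 to 0.12), and Aldoc 0.34.

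Immunosuppressive mediators were mostly lower in RTT cells, with Arg1 an exception. Of 18 measured, 2 were 2-fold higher and 8 were lower, beside 13.3% of all genes in each direction, with a median of -0.82. Nos2, the inducible nitric oxide synthase, was at 94.3 and 6.42 CPM, although 1 cell held over 20% of its UMIs, and Arg2, the mitochondrial arginase, at 127 and 31.9 CPM. Nt5e, the ectoenzyme CD73 that makes adenosine, was higher in RTT cells at 9.72 and 37.2 CPM, and Trem2, a lipid-sensing receptor of TAMs, at 183 and 544 CPM. Lgals1, galectin 1, was at 1710 and 3027 CPM, a log2 ratio of 0.82. Il10 had 73 UMIs in NTT and 3 in RTT cells, but 1 cell held most of them.

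Inflammatory genes were more often 2-fold lower than higher in RTT cells. Of 23 cytokine, chemokine and related genes, 4 were 2-fold higher and 9 were lower, beside 13.3% of all genes in each direction, with a median of -0.60. The feedback inhibitors of NF-kappaB, Tnfaip3 and Nfkbia, were at 191 and 20.6 CPM and at 1398 and 356 CPM. The monocyte chemoattractants Ccl12 and Ccl7 were higher in RTT cells, at 93.4 and 591 CPM and at 179 and 410 CPM. Cxcl1 and Ccl24 rested on single cells, which held over 20% of their UMIs.

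Interferon-stimulated genes were the lowest of the lists in RTT cells. Of 20 measured, 0 were 2-fold higher and 12 were lower, all 20 lay below 0, and the median log2 ratio was -1.53. Gbp2, a guanylate-binding GTPase, was at 215 and 25.7 CPM (log2 -3.06, -3.41 to -2.73), Isg15 at 560 and 89.5 CPM (-2.65, -2.84 to -2.46) and Stat2 at 116 and 22.7 CPM. Bst2, the virus tether tetherin, was at 256 and 245 CPM, and Ly6a had a log2 ratio of -0.27. Cxcl9 had 29 UMIs in NTT and 30 in RTT cells, 28.2 and 6.88 CPM, a log2 ratio of -2.03 (-2.82 to -1.25). Cxcl10 was at 40.8 and 38.5 CPM, with 24.8% of its UMIs in 1 cell. Both chemokines were far above this in some neighbours, Cxcl9 at 731 CPM in NTT against 1163 CPM in RTT Monocyte_1 cells, and Cxcl10 at 1916 and 4588 CPM in Infl_Mono cells. At equal depth, Cxcl9 was found in 1.14% of RTT TAM_Spp1 cells, beside 0.36% of Ctsk_Macro, 1.85% of TAM_C1q and 2.17% of Infl_Mono cells. It was found in 3.70% of RTT TAM_cycling and 24.5% of RTT Monocyte_1 cells. In the NTT library, TAM_Spp1 (3.14%) and Macro cells (3.09%) were alike, below Infl_Mono (12.5%), Monocyte_1 (16.5%), TAM_cycling (22.3%) and TAM_H2Ab1 cells (25.4%). Low Cxcl9 was thus not particular to TAM_Spp1. The medians of the list in Monocyte_1, Infl_Mono and TAM_cycling were -0.59, -0.63 and -1.67.

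MHC class II genes stood at the other extreme. Of 10 measured, 8 were 2-fold higher and 0 lower in RTT cells, against 13.3% of all genes higher, with a median of 1.73. H2-Ab1 was at 2654 and 8724 CPM (log2 1.72, 1.66 to 1.77), H2-Aa at 3270 and 9756 CPM, H2-Eb1 at 2170 and 7317 CPM, and Cd74, the invariant chain, at 1958 and 7092 CPM. The peptide-loading genes H2-DMa, H2-DMb1, H2-DMb2 and H2-Oa had log2 ratios between 1.48 and 3.11. Ciita, their transactivator, had a log2 ratio of 0.34 with an interval that included 0 (-0.08 to 0.78), at 54.5 and 68.8 CPM, and Ctss, the protease that trims the invariant chain, 0.38. In the RTT library H2-Ab1 was lower in TAM_C1q (1155 CPM), Infl_Mono (1686 CPM), TAM_cycling (2440 CPM) and Ctsk_Macro cells (574 CPM) than in TAM_Spp1 cells, and higher in Monocyte_1 cells (11264 CPM). NK cells stood at 215 and 282 CPM of H2-Ab1. Dendritic cell markers summed to 150 CPM in RTT TAM_Spp1 cells, against 1845 CPM in the RTT dendritic cell population cDC2. The 3 of these markers with at least 100 UMIs had a median log2 excess of 2.08 over the RTT neighbours. The part of dendritic-like cells under the label in the class II values was not tested.

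Class I genes did not share the direction. Of 14 measured, 0 were 2-fold higher and 3 were lower, H2-Q7, a nonclassical class I chain, and the peptide transporter subunits Tap1 and Tap2, with a median of -0.55. Psmb10, Psmb8 and Erap1, which cut peptides for class I, had log2 ratios of 0.51, 0.37 and 0.36.

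Resident-type TAM genes were higher in RTT cells, and monocyte genes lower. Of 22 resident-type genes, 11 were 2-fold higher and 0 lower, with a median of 1.11. The medians of this list in Monocyte_1, Infl_Mono and TAM_cycling were -0.02, 2.11 and 1.13, so the difference was not particular to TAM_Spp1. C1qa, a chain of complement C1q, was at 1176 and 4641 CPM (log2 1.98, 1.90 to 2.07), Cd81, a tetraspanin, at 56.4 and 624 CPM, Ms4a7 at 309 and 1310 CPM, and Apoe, the lipid carrier apolipoprotein E, at 2878 and 5517 CPM. The macrophage transcription factor Maf and the mannose receptor Mrc1 were lower, with log2 ratios of -0.82 and -0.79 (-0.90 to -0.68 for Mrc1). C1qa in NK cells was also higher in the RTT library, at 41.5 and 814 CPM, and the part of free RNA in the difference was not tested. Of 25 monocyte genes, 0 were higher and 13 lower, with a median of -1.18, beside 0.05 in Monocyte_1, -0.88 in Infl_Mono and 0.95 in TAM_cycling cells. Hp, haptoglobin, was at 596 and 69.7 CPM, whereas Ccr2, Fcgr1 and Ms4a6c had log2 ratios of -0.10, -0.12 and 0.05. Ccr2 was detected at equal depth in 89.5% and 88.8% of cells.

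Transcription factors were mostly lower in RTT cells, and receptors were more evenly spread. Of 37 transcription factors, 0 were 2-fold higher and 16 lower, with a median of -0.94. Id3, Irf1 and the AP-1 member Fosl2 were lowest, at log2 ratios of -3.95, -2.08 and -1.97, and Relb, Spi1 and Cebpd were highest at 0.51, 0.44 and 0.38. Of 25 growth factor and chemokine receptors, 1 was higher and 6 were lower, with a median of -0.07. Ptger4, the EP4 receptor for prostaglandin E2, was at 5.83 and 25.9 CPM, a log2 ratio of 2.15 (0.98 to 3.63) on 6 and 113 UMIs. Cxcr4 was at 127 and 14.5 CPM and the TNF receptor Tnfrsf1b at 254 and 43.6 CPM. The interferon gamma receptor chain Ifngr2 and the GM-CSF receptor chain Csf2ra had log2 ratios of 0.87 and 0.78.

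Lipid and lysosome genes had a median of -0.02, with 3 of 20 higher and 3 lower. The tetraspanins Cd9 and Cd63 were at 157 and 421 CPM and at 303 and 788 CPM. Abca1, the cholesterol exporter, was at 375 and 98.9 CPM and the fatty acid-binding protein Fabp5 at 2010 and 682 CPM. Syngr1 had 0 UMIs in NTT and 108 in RTT cells and was at least 8.49-fold higher in RTT cells, with 3 UMIs taken as the floor for the NTT sum. Only 5 of 22 cell cycle genes in the matrix reached 100 UMIs, 2 of them higher (Mcm6 and Mcm3) and 1 lower (Pcna). Of the 20 genes that the study itself lists for TAM_Spp1, 2 were higher and 7 lower, with a median of -0.66. The study describes this list as drawn from tumours of another melanoma model than YUMM3.3. The population was named on a map that includes the YUMM3.3 cells, so the list is not independent of them.

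**Figure D4:**
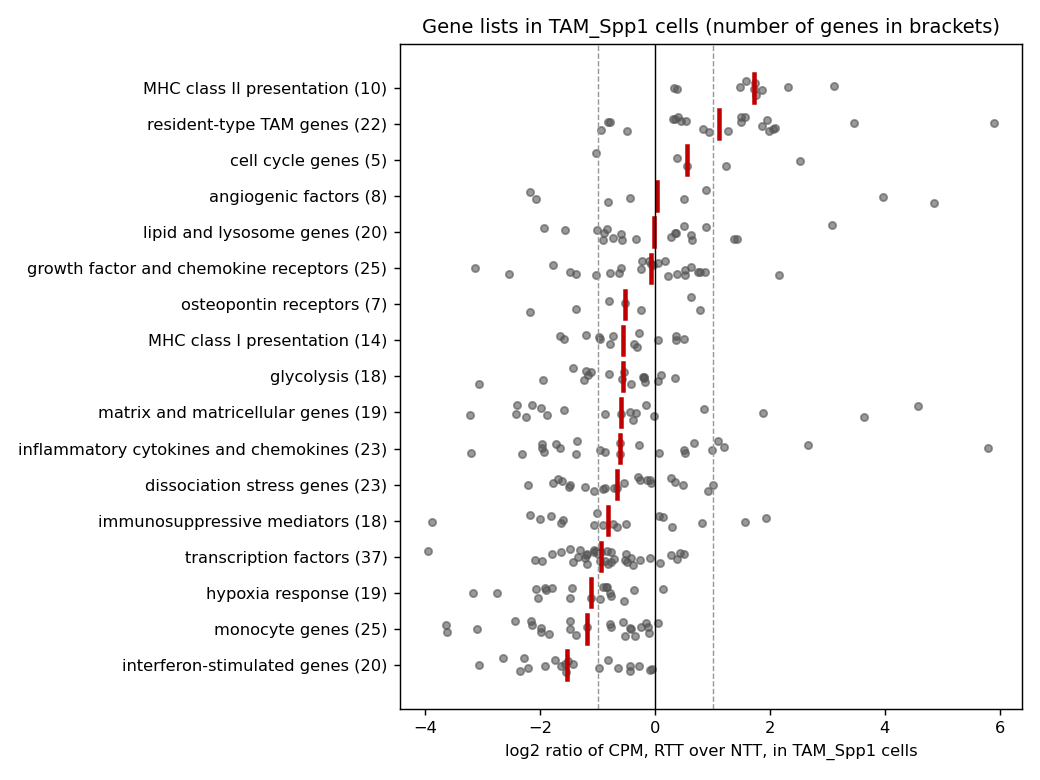
Log2 ratios of CPM in RTT over NTT TAM_Spp1 cells for the members of each list with at least 100 UMIs (grey points), with the median as a red bar and dashed lines at 2-fold. The medians run from -1.53 for interferon-stimulated genes to 1.73 for MHC class II genes.

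The most similar population was not the same in the 2 libraries. Over 9789 genes, the summed profile of NTT TAM_Spp1 cells had its highest Spearman correlation with NTT Infl_Mono cells (0.939), then NTT Monocyte_1 cells (0.926), and 0.890 with RTT TAM_Spp1 cells. The profile of RTT TAM_Spp1 cells was most like RTT TAM_C1q cells (0.953), then RTT Monocyte_1 cells (0.945). These are correlations across genes within sums that share a library and differ in depth, and NTT TAM_C1q cells were too few to enter.

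Against Infl_Mono cells of the same library, NTT TAM_Spp1 cells held more Arg1 (840 against 70.9 CPM) and Mrc1 (899 against 201 CPM), alike Apoe (2878 against 2865 CPM) and far less Cxcl10 (40.8 against 1916 CPM) and Cxcl9 (28.2 against 498 CPM). Against TAM_C1q cells of the same library, RTT TAM_Spp1 cells held the same Spp1 but more H2-Ab1 (8724 against 1155 CPM), Thbs1 (449 against 67.3 CPM), Vcan (169 against 4.72 CPM), Ccr2 (1597 against 462 CPM) and Arg1 (928 against 442 CPM). They held less C1qa (4641 against 10216 CPM), Apoe (5517 against 17993 CPM) and Mrc1 (520 against 1490 CPM). All the counting intervals of these pairs were apart except those of Apoe in the NTT library and Spp1 in the RTT library.

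The cells under the label were not uniform. Spp1 was concentrated in few cells, and the 20 NTT and 72 RTT cells with the most Spp1 held 89.0% and 70.4% of its UMIs. In RTT cells this was not particular to Spp1, since as many top cells held 70.2% of Arg1, 73.0% of Thbs1 and 78.5% of Vcan UMIs. In NTT cells they held 74.2% of Arg1, 35.9% of Thbs1 and 43.2% of Vcan UMIs. Arg1 was absent from 120 of 193 NTT and 397 of 719 RTT cells before thinning. No UMI of Spp1 was found in 156 of 193 NTT and 226 of 719 RTT cells before thinning. Thbs1 was spread over most NTT cells, where 21 of 193 had none, and was absent from 454 of 719 RTT cells. At 2000 UMIs, 23.3% of RTT cells held both Spp1 and Arg1 and 3.66% of NTT cells did. Spp1 and Cxcl9 were found together in 3 NTT and 5 RTT cells.

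Class II genes varied most widely from cell to cell. Of 2000 UMIs per cell, the class II list took a median of 11 (10th to 90th percentile 4 to 82) in NTT cells and 68 (8 to 152) in RTT cells, so the RTT cells included both class II-low and class II-high cells. Of RTT cells, 81.7% were above the NTT median. Monocyte genes took a median of 66 (39 to 90) and 36 (17 to 80) UMIs, resident-type TAM genes 14 (5 to 72) and 50 (8 to 108), interferon-stimulated genes 23 (10 to 40) and 8 (2 to 23), and hypoxia genes 12 (3 to 27) and 6 (2 to 15.8). The ranges of the libraries overlapped for each list. RTT cells with and without a UMI of Spp1 had class II medians of 67 and 69 UMIs and resident-type medians of 63 and 33 UMIs, in 388 and 315 cells.

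**Figure D5:**
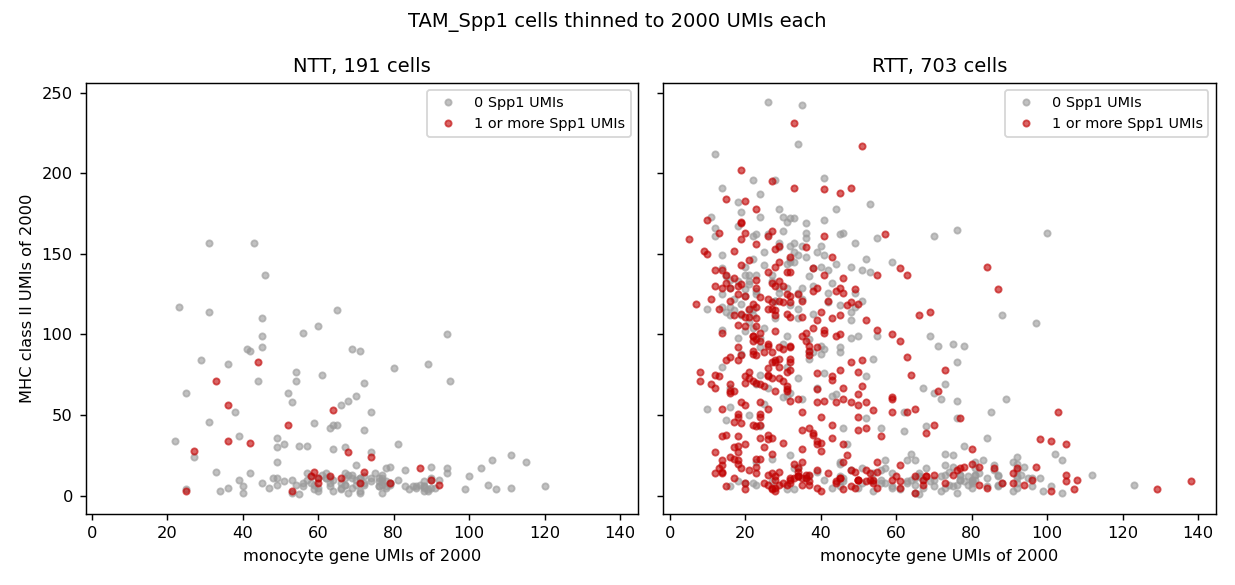
Each point is a TAM_Spp1 cell thinned to 2000 UMIs, with its UMIs of 25 monocyte genes on the x axis and of 11 MHC class II genes on the y axis, red where the cell held a UMI of Spp1. Most NTT cells lie low on the class II axis (median 11), whereas RTT cells (median 68) spread over its whole range, with and without Spp1.

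Across cells, described without a test, hypoxia and glycolysis genes went together in both libraries, with Spearman correlations of 0.72 over 191 NTT and 0.67 over 703 RTT cells. Monocyte and resident-type genes went in opposite directions in RTT cells (-0.68) and less so in NTT cells (-0.38). Class II genes went against matrix genes in RTT cells (-0.52) and against Thbs1 in both libraries (-0.41 and -0.47). Arg1 went with class II genes in NTT cells (0.44) and against them in RTT cells (-0.32). Spp1 and Arg1 had a correlation of 0.28 in RTT cells, and Spp1 and class II genes -0.08. All cells of a library share its preparation and its free RNA, and thinned counts are sparse.

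Summed over each list, markers of other cell types were low in TAM_Spp1 cells, although some stood above the neighbours in RTT cells. Neutrophil markers summed to 409 CPM in NTT against 186 CPM in RTT cells, with 9 and 8 of 11 detected and Ly6g and Ngp at 0, against 86121 and 19914 CPM in cells named neutrophils. Dendritic cell markers summed to 131 and 150 CPM, with 8 and 10 of 13 detected and Xcr1 and Clec9a at 0 in both libraries, and Cd209a alone was 2-fold higher in RTT cells, with a log2 ratio of 2.16. The dendritic cell population cDC2 held 1639 and 1845 CPM of these markers. The 3 markers with at least 100 UMIs had a median log2 excess over the neighbours of -0.41 in NTT cells. In RTT cells it was 2.08, with 2 past 2-fold. T and NK cell markers summed to 32.1 and 37.2 CPM (14 and 9 of 16), B and plasma cell markers to 33.1 and 58.7 CPM (3 and 6 of 7), fibroblast markers to 23.3 and 47.0 CPM (7 and 9 of 11) and the 5 melanoma markers in the matrix to 32.1 and 22.5 CPM (2 in each library). The 1 T and NK cell marker with at least 100 UMIs had an RTT over NTT log2 ratio of 1.91 (0.94 to 3.06). Its log2 ratio over the neighbours was -0.29 in NTT and 2.92 in RTT cells. In cDC2 cells the T and NK list summed to 1808 and 917 CPM. Osteoclast-like markers, which include macrophage genes, summed to 253 and 252 CPM. Genes induced by tissue dissociation also moved between the libraries, with 1 of 23 higher and 8 lower in RTT cells and a median of -0.67. Hspa1b, with over 20% of its UMIs in 1 cell, Dusp1 and Zfp36 were at 505, 636 and 552 CPM in NTT and at 109, 187 and 171 CPM in RTT cells. The part of dissociation in the differences of inflammatory genes was not tested.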

How the data were processed

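Single-cell RNA-seq of CD45+ cells was available as 1 NTT and 1 RTT library. The authors deposited raw UMI counts of 12584 genes in 7815 cells (Cell Ranger 6.1.1 with the prebuilt mm10 reference, Seurat), without normalization. Their filters kept cells with over 1000 genes, under 15% mitochondrial and under 40% ribosomal reads, and genes found in at least 5 cells of each of 3 experiments, and removed ribosomal and mitochondrial genes. They named populations on clusters of a Harmony map shared with another model. Genes lost to these filters, Gapdh and Ly6c2 among them, were not analysed here. Of the TAM_Spp1 cells, 193 NTT and 703 RTT cells hold over 1000 of the deposited genes.

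From the counts, UMIs were summed over the cells of a population and library and scaled to CPM, with exact Poisson intervals. Log2 ratios compare the RTT sum with the NTT sum and carry exact binomial intervals. A gene needed at least 100 UMIs over both libraries of TAM_Spp1 cells, and a log2 ratio of 1 is called 2-fold. A library at 0 was set to a floor of 3 UMIs. Cells were thinned to 2000 UMIs for shares of cells. With 1 library per group there was no test, no p-value and no error between mice. PCR duplicates are collapsed by UMIs, and intervals cover counting error only. The members and 25 gene lists were chosen with earlier results of these data known. Named genes were 11 fixed genes, the 10 largest ratios in each direction in which no cell held over 20% of UMIs, the 15 leading and 10 trailing genes against the other populations of at least 50 cells, and up to 3 highest and 3 lowest members of each list (all of a list of under 12). Some genes that this rule names are not reported here. Gene positions are from GENCODE M21 on GRCm38, the build but not the annotation release of the authors, and promoters from RefSeq (GRCm38.p6). The ratio step was tested on simulated data. Alternatives were other scalings, count minimums, cell filters, thinning, reference populations and denominators. Tools were Python 3.11.15, numpy 2.4.6, scipy 1.17.1, pandas 2.3.3, scanpy 1.11.5, matplotlib 3.10.9 and edgeR 4.0.16 in R 4.3.3. The deposited table held 0 columns of other samples.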

Additional observations from a re-analysis of the deposited data

Results flagged for a closer look

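The following values differed in direction between TAM_Spp1 and another population under the same RTT over NTT contrast. With 1 library per group the differences were not tested, and no cause was weighed. For MHC class II genes the median log2 ratio was 1.73 in TAM_Spp1 against -1.36 in Infl_Mono and -0.77 in TAM_cycling cells, and for H2-Ab1 it was 1.72 against -1.49 and -0.91. NTT TAM_cycling cells held 3740 CPM of B and plasma cell markers, 7 of 7 of them detected, against 67.0 CPM in RTT TAM_cycling cells, with 5 detected and Cd79a and Igkc at 0. B cells carry class II genes, and the part of these markers in the contrast with TAM_cycling was not tested. For the mannose receptor gene Mrc1 the log2 ratio was -0.79 in TAM_Spp1 against 1.65 in Infl_Mono and 1.64 in TAM_cycling cells. For Vcan it was -1.98 against 1.14 in Monocyte_1 cells, and for Cxcl9 it was -2.03, on 29 and 30 UMIs, against 0.67 in Monocyte_1 cells. Matrix genes had a median of -0.59 in TAM_Spp1 against 0.89 in TAM_cycling cells, monocyte genes -1.18 against 0.95, and the study's own TAM_Spp1 list -0.66 against 1.01.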

How the results depend on the processing

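No paired analysis was possible because each group held 1 library. Scrublet marked 0 of 2975 and 0 of 4840 cells as doublets, too few for its calls to be used, so the planned setting without its doublets gave no value. As a setting chosen after seeing the data, the 5% of cells with the highest doublet score were left out in each library. These were 149 and 242 cells, of them 2 and 34 TAM_Spp1 cells, and the class II median moved to 1.81. RTT UMIs fell from 3043 to 2165 for Fcrls, from 275 to 194 for Hpgds and from 139 to 102 for Actn1. They fell less for Htra3, from 452 to 432, and Plxdc2, from 165 to 164. Of 30 log2 ratios of named genes, 26 stayed within their intervals, 4 left them and 0 reversed. In the other settings, 13 of the 30 left their intervals after thinning to 2000 UMIs and 10 with the mean of per-cell CPM. In cells with at least 1500 genes 8 left them, with either scaling 0 did, and 0 reversed in each.

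Scaling by TMM or by median-of-ratios size factors shifted all log2 ratios by 0.01 and 0.00. Genes 2-fold higher and lower numbered 1569 and 1869 with no count minimum, 200 and 199 with a minimum of 500 UMIs, and 348 and 359 after thinning to 2000 UMIs. Among medians of the lists, hypoxia genes went to -0.91 with no minimum, -0.86 with 500 UMIs and -0.91 after thinning. Resident-type TAM genes went to 0.83 with no minimum. Interferon-stimulated genes went to -1.08 with 500 UMIs. Monocyte genes went to -0.66 with 500 UMIs and -0.71 after thinning. Lists of few members or a median near 0 turned sign. The angiogenic median of 0.03 went to -0.47 with no minimum, -1.50 with 500 UMIs and -2.14 after thinning, osteopontin receptors went from -0.53 to 0.63 over the 3 with 500 UMIs, and cell cycle genes from 0.55 to -0.23 over the 2 left after thinning. Lipid and lysosome genes went from -0.02 to between -0.49 and -0.33, class I genes from -0.55 to between -0.76 and -0.37, immunosuppressive genes to -1.03 with no minimum and matrix genes to -0.80 in cells with at least 1500 genes. The log2 ratio of Plxdc2, on 2 NTT UMIs, was at least 1.96 after thinning left 0.

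The NTT share was 33.2% of macrophages and 6.49% of all cells. The RTT share was 14.9% of all cells. Of RTT monocytes and macrophages it was 17.1% (16.0 to 18.3%), and it fell to 14.7% where only those with at least 1500 genes were kept. Shares of cells with a UMI moved with depth. Unthinned, Spp1 was found in 19.2% of NTT and 68.6% of RTT cells, Arg1 in 37.8% and 44.8%, Thbs1 in 89.1% and 36.9%, and Vcan in 70.5% and 24.1%. At 1000 UMIs, Spp1 was found in 48.1% and Arg1 in 29.3% of RTT cells, Thbs1 in 75.6% and 22.7%, and Vcan in 33.2% and 13.5%. With the pooled UMIs of the other populations as the reference, 8 of the 15 leading genes were among the first 15. Depth limits all genes under 100 UMIs, Cxcl9 among them, and 1 library per group limits every difference between the libraries.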
